A study of Mus musculus with 13 samples.

Results

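The 31 genes described here make cholesterol and fatty acids, sense sterols, or move cholesterol out of cells and between compartments, and they were followed in mouse regulatory T cells. They were chosen by name as a pathway module and not by their measured values, though earlier results of these data were known. All 31 were found among 24313 genes with readable names in the deposited RNA-seq table. By role, 17 encode sterol synthesis enzymes, 4 the sterol sensing machinery, 6 enzymes of fatty acid synthesis and 4 cholesterol efflux and transport factors. Gene expression was measured in CAT mice, which carry Foxp3Cre-YFP and Ctnnb1flex3, and in WT mice, which carry Foxp3Cre-YFP alone. All RNA and ATAC-seq mice were C57BL/6 males aged 21 days. Cre is expressed from the Foxp3 gene in both genotypes, and in CAT cells it removes exon 3 of Ctnnb1, so that beta-catenin, the mediator of canonical Wnt signalling, escapes degradation. YFP+ CD25+ cells were purified by flow cytometry out of lymph node CD4+ T cells. RNA-seq covered 3 CAT and 3 WT libraries, ATAC-seq, which maps open chromatin, covered 2 CAT and 3 WT libraries, and ChIP-seq of TCF1, a DNA-binding partner of beta-catenin, covered 1 WT library from mice aged 10 to 12 weeks. The labels do not say whether a library came from 1 mouse or from pooled mice, and the spread that the tests use is the one among these libraries, which may in part be technical.

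Cholesterol is built from acetyl-CoA through mevalonate, isoprenoid diphosphates, squalene and lanosterol. When membranes of the endoplasmic reticulum are poor in sterol, SCAP carries the SREBP transcription factors to the Golgi for cleavage, and INSIG proteins hold SCAP back when sterol is plentiful. SREBP2, encoded by Srebf2, is known mainly for driving sterol synthesis and uptake, and SREBP1, encoded by Srebf1, for driving fatty acid synthesis. Liver X receptors, among them LXRbeta encoded by Nr1h2, are activated by oxysterols and raise cholesterol efflux through ABCA1 and ABCG1. In regulatory T cells the mevalonate pathway is known to be needed for suppressive function.

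The RNA libraries held 24124086 to 28456490 assigned fragments in CAT and 25430629 to 31527245 in WT. The first principal component carried 84.8% of the variance and separated the genotypes, with CAT replicate 3 the CAT library nearest to WT. Foxp3, which defines regulatory T cells, stood at 153, 155 and 166 CPM in CAT and at 86.7, 110 and 118 CPM in WT, and it rose by 0.59 on the log2 scale (adjusted p = 0.00221 in edgeR's quasi-likelihood test). Il2ra, which encodes the CD25 used in the sort, rose by 1.44 (adjusted p = 3.36e-06). Ctnnb1 stood at 429, 415 and 492 CPM in CAT and at 452, 488 and 491 CPM in WT, and its gene total does not check the loss of 1 exon. Of 19 proliferation genes 18 rose and none fell, and their summed level was 2230 to 2780 CPM in CAT, against 974 to 1080 CPM in WT. Over all tested genes 25.5% rose and 23.5% fell at an adjusted p under 0.05. Of 7 adipocyte markers only Fabp4 had enough fragments to be tested. It stood at 22.2, 12.8 and 7.88 CPM in CAT and at 0.0772, 0 and 0.0368 CPM in WT. Cidec and Lep were at 0 in CAT and Adipoq reached at most 0.0713 CPM there. Plin1 stood at 0.261, 0.212 and 0.143 CPM in CAT and at 0.0772, 0.0318 and 0.147 CPM in WT. The summed level of the adipocyte list was 8.2 to 22.7 CPM in CAT and 0.476 to 1.14 CPM in WT. Of 8 myeloid markers 3 rose and 3 fell, at a summed 26 to 50.2 CPM in CAT and 14.4 to 21.5 CPM in WT. Of 6 CD8 T cell and NK cell markers 4 were tested and 3 rose, at a summed 48.6 to 58.8 CPM in CAT and 19.9 to 23.6 CPM in WT. Cd8a, Cd8b1 and Prf1 rose, and Klrb1c did not pass. Cd8b1 stood at 20.2, 23.1 and 30.1 CPM in CAT and at 9.14, 8.67 and 7.65 CPM in WT. Prf1 stood at 25.9, 23.4 and 26.8 CPM in CAT and at 12.6, 10.5 and 11.4 CPM in WT. Ncr1 reached at most 0.212 CPM in CAT. Of 5 fibroblast markers 2 were tested and Col1a2 rose, at 27.5, 20.2 and 13.1 CPM in CAT and 0.617, 0.572 and 0.515 CPM in WT (adjusted p = 3.26e-06). Col1a1 did not pass (log2 change 1.63, adjusted p = 0.056). The fibroblast list summed to 14.3 to 28.2 CPM in CAT and 0.667 to 1.43 CPM in WT, with Dcn and Pdgfra at 0 in CAT. Of 6 B cell markers 2 were tested and Cd79b fell, by 1.17 (adjusted p = 0.00207), and the list summed to 5.92 to 10.2 CPM in CAT and 17.1 to 20.9 CPM in WT, with Pax5 at 0 in CAT. Of 5 erythroid markers Alas2 alone was tested and did not pass, and the list summed to 2.05 to 2.54 CPM in CAT and 0.926 to 1.24 CPM in WT. The part of proliferation and of these other cells in the results below was not tested, and in bulk libraries fewer cells of a type and less RNA per cell cannot be told apart.

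The cholesterol and fatty acid genes changed in CAT cells in both directions, moderately, and about as often as other genes. Of the 31 genes, all of which had enough fragments to be tested, 9 rose and 7 fell at an adjusted p under 0.05, and 15 did not pass. The share that passed was 51.6%, against 49.0% of all 13193 tested genes. The share that rose was 29.0%, against 25.5% of all tested genes, and the share that fell was 22.6%, against 23.5%. Changes lay between -0.76 and 0.85 on the log2 scale, with a median of 0.12, against a median of 0.00 over all tested genes. None of the 31 changed beyond 2-fold, whereas 18.0% of all tested genes and 35.4% of those that passed did. The median size of a change regardless of direction was 0.43, against 0.36 over all tested genes. In 22 of the 31, or 71.0%, the CAT and WT libraries did not overlap, against 59.2% of all tested genes. In 13 of the 31 genes all CAT libraries were the higher ones, against 30.1% of all tested genes. In 9 of the 31 they were the lower ones, against 29.1%.

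**Figure D1:**
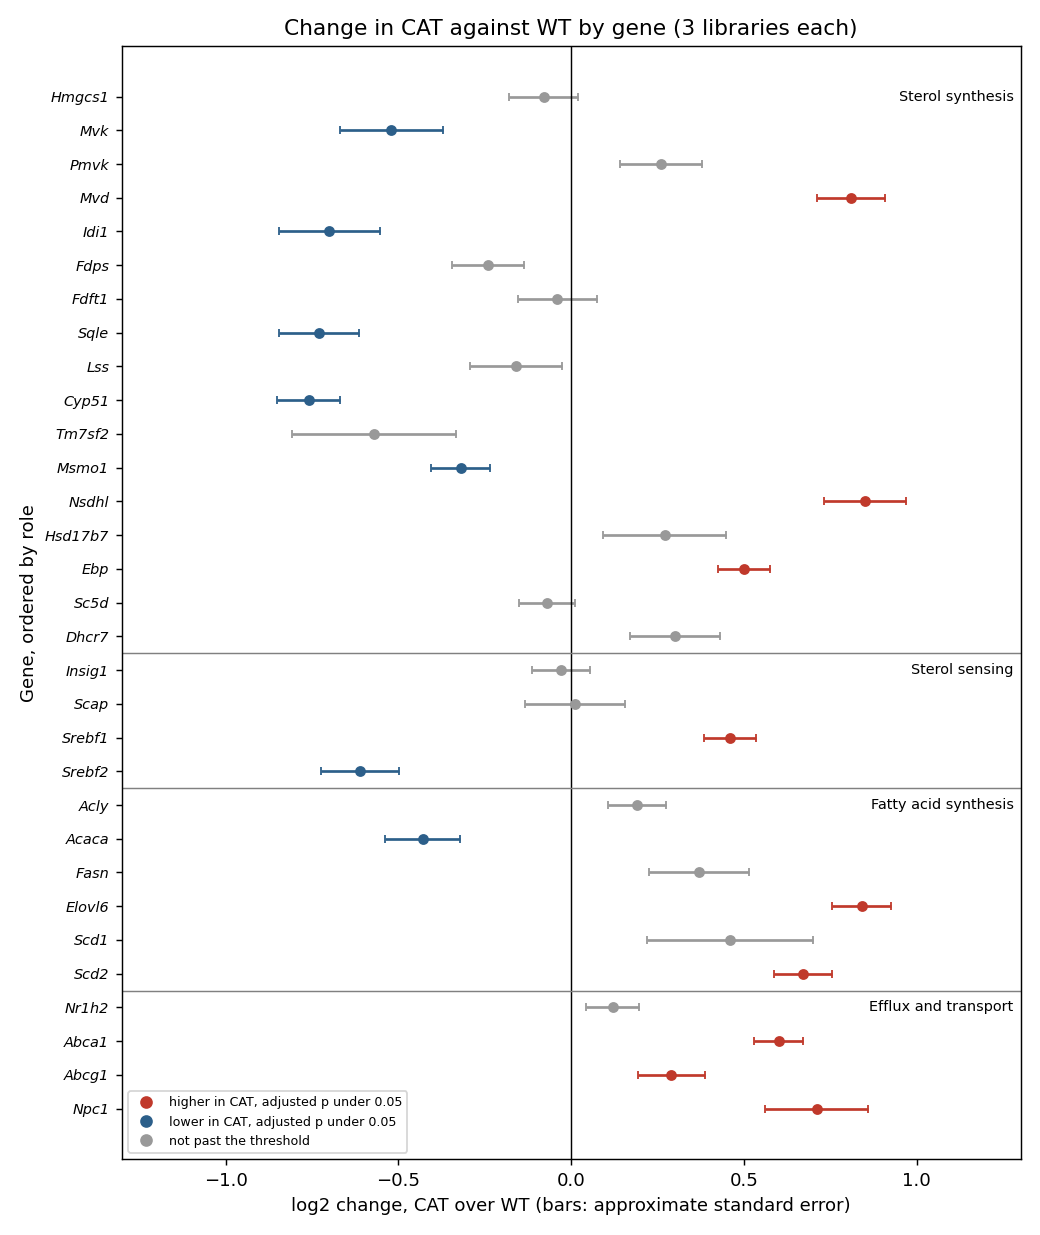
Change of each of the 31 genes in CAT over WT on the log2 scale (x axis), with genes ordered by role down the page and bars giving the approximate standard error of edgeR's estimate from 3 libraries of each genotype. Of the 9 genes that rose (red) and the 7 that fell (blue), 3 and 5 are sterol synthesis enzymes, while no efflux or transport gene lies left of 0.

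The roles differed in how their totals compared. Summed over the 17 sterol synthesis enzymes, the level was 430, 444 and 424 CPM in CAT and 433, 427 and 423 CPM in WT. These ranges overlapped, and the total hid opposite changes of single enzymes. The 4 sensing genes summed to 332, 309 and 351 CPM in CAT and to 301, 327 and 359 CPM in WT, also with overlap. The 6 fatty acid synthesis genes summed to 906, 842 and 913 CPM in CAT, above the 621, 735 and 733 CPM in WT in every library. The 4 efflux and transport genes summed to 887, 835 and 872 CPM in CAT, again above every WT library, at 608, 657 and 651 CPM. A sum is dominated by its most abundant members and carries no test here.

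**Figure D2:**
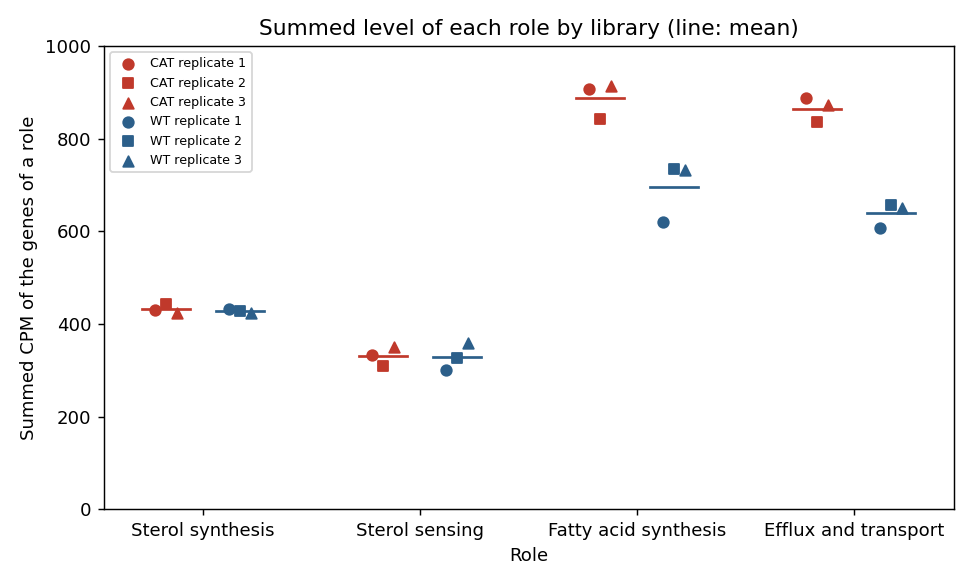
Summed CPM of the genes of each role (y axis) in every RNA library, with CAT libraries left of WT libraries and a line at each mean. The sterol synthesis totals of both genotypes lie between 423 and 444 CPM, and the fatty acid and efflux totals of the CAT libraries, at 835 CPM or more, lie above all WT libraries, at 735 CPM or less.

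Among the 17 sterol synthesis enzymes 3 rose, 5 fell and 9 did not pass, with a median log2 change of -0.08. Over all tested genes 25.5% rose and 23.5% fell, and the counts were not tested against these shares. In the mevalonate segment Mvd rose, whereas Mvk and Idi1 fell. Hmgcs1, which makes HMG-CoA, stood at 38.7, 34.3 and 33.5 CPM in CAT and at 34.4, 38.1 and 40.4 CPM in WT, with overlap (log2 change -0.08, adjusted p = 0.509). Mvk, the mevalonate kinase, stood at 6.11, 6.44 and 6.17 CPM in CAT and at 8.49, 8.07 and 10.4 CPM in WT. Every CAT library was below every WT library, and Mvk fell by 0.52 ± 0.148 on the log2 scale (approximate standard error, n = 3 each, adjusted p = 0.0156 in edgeR's test). Without WT replicate 3 its adjusted p was 0.0644.

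Pmvk, which adds the second phosphate, was at 13.1 to 15.7 CPM in CAT and 11.5 to 12.5 CPM in WT, with no overlap, and did not pass (log2 change 0.26, adjusted p = 0.101). Mvd, the decarboxylase that closes the segment, stood at 32.5, 33.4 and 28.7 CPM in CAT and at 17.5, 18.0 and 18.3 CPM in WT. It rose 1.75-fold, by 0.81 ± 0.098 on the log2 scale (adjusted p = 0.000163), and all CAT libraries were above all WT libraries. Idi1, which isomerises isopentenyl diphosphate, stood at 8.57, 9.45 and 6.74 CPM in CAT and at 13.6, 13.1 and 13.5 CPM in WT, and it fell by 0.70 ± 0.146 (adjusted p = 0.00358). Mvd and Idi1, which act in succession, moved in opposite directions, both beyond the spread of their libraries.

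Promoter sequences are given here for a gene that fell, a gene that rose and the one gene with a match to the sterol regulatory element, since all belong to the same pathway. Each runs 5′ to 3′ on the gene's strand and ends at the last base before the gene span (RefSeq, GRCm38.p6). Capitals mark CCAAT or its complement ATTGG in Mvk and Nsdhl, and the sterol regulatory element letters in Hmgcs1. Mvk is shown from chr5:114444019-114444263 on the plus strand, Nsdhl from chrX:72918271-72918520 on the plus strand, and Hmgcs1 from chr13:119690101-119690350 on the plus strand.
Mvk: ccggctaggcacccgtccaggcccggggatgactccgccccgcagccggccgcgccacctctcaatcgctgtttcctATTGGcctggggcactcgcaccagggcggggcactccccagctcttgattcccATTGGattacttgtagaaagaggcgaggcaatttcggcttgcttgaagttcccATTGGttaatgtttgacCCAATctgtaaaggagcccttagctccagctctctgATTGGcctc
Nsdhl: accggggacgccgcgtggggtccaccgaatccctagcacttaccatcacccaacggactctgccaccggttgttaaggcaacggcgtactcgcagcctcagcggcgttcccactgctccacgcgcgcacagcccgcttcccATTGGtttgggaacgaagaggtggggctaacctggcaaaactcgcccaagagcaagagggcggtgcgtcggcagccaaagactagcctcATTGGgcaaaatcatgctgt
Hmgcs1: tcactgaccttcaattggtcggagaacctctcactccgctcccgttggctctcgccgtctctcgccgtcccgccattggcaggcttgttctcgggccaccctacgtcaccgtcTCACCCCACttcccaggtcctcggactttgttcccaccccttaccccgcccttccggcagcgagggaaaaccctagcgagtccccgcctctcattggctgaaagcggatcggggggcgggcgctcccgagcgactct
Windows of 300 bases, from 250 before to 50 after a listed start, were held for 24 of the 31 genes and were searched on both strands. TCACNCCAC, the letters searched for the sterol regulatory element, matched in 1 of the 24 genes, or 4.17%, against 1.31% of 9957 tested genes. CTTTGAT, the letters searched for TCF and LEF factors, matched in 0 of the 24, against 3.04%. CCAAT, the core recognised by NF-Y and added after the data were seen, matched in 19 of the 24, or 79.2%, against 42.7%. The match to the sterol regulatory element overlapped no CCAAT match. CCAAT was present in 4 of the 6 genes that rose and had a window, and in 5 of the 6 that fell and had one. A match describes letters only, and no match says only that these letters are not in the window.

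In the segment between isoprenoids and lanosterol 1 gene changed. Fdps, which makes farnesyl diphosphate, was lower in every CAT library, at 13.8 to 14.6 CPM in CAT and 16.0 to 17.6 CPM in WT, but did not pass (log2 change -0.24, adjusted p = 0.0865). Fdft1, the squalene synthase, was at 19.0 to 23.7 CPM in CAT and 20.9 to 23.3 CPM in WT, with overlap. Sqle, the squalene epoxidase and a control point of the pathway, stood at 12.8, 11.4 and 10.6 CPM in CAT and at 19.9, 18.5 and 19.3 CPM in WT. The groups were well apart, and Sqle fell by 0.73 ± 0.115 (adjusted p = 0.000718). Lss, the lanosterol synthase, was at 13.4 to 15.5 CPM in CAT and 13.6 to 17.9 CPM in WT, with overlap. Fdft1 and Lss each overlap another annotated gene and had estimated counts that were not whole numbers, so their values are less certain.

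From lanosterol to cholesterol, Cyp51 and Msmo1 fell, Nsdhl and Ebp rose, and the other genes did not pass. Cyp51, the lanosterol demethylase, stood at 30.7, 32.3 and 27.8 CPM in CAT and at 54.1, 51.2 and 48.8 CPM in WT. It fell to 0.59 times the WT level, by 0.76 ± 0.091 on the log2 scale (adjusted p = 0.000152), which was the largest fall among the 31 genes. Tm7sf2, a sterol reductase, was at 2.08 to 3.32 CPM in CAT and 3.43 to 4.93 CPM in WT, with no overlap. It did not pass (log2 change -0.57, adjusted p = 0.072).

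Removal of the methyl groups that follow needs Msmo1, Nsdhl and Hsd17b7 in turn, and these did not move together. Msmo1, the oxidase, stood at 27.7, 29.1 and 27.7 CPM in CAT and at 36.8, 33.9 and 34.4 CPM in WT, and fell by 0.32 ± 0.086 (adjusted p = 0.0133). Its call was kept in 10 of 16 alternative settings, and limma on FPKM values was among those that did not make it (adjusted p = 0.0976). Nsdhl, the dehydrogenase whose promoter is printed above, stood at 23.4, 27.3 and 21.7 CPM in CAT and at 13.3, 14.1 and 12.7 CPM in WT. It rose 1.80-fold, by 0.85 ± 0.118 (adjusted p = 0.000367), the largest rise among the 31 genes. Hsd17b7, the ketoreductase, stood at 20.6, 29.4 and 24.8 CPM in CAT and at 26.1, 17.9 and 18.1 CPM in WT, with WT replicate 1 inside the CAT range. It did not pass (log2 change 0.27, adjusted p = 0.239), and without WT replicate 1 its adjusted p was 0.0464.

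Ebp, the sterol isomerase, stood at 85.4, 87.2 and 87.7 CPM in CAT and at 63.6, 62.3 and 58.0 CPM in WT. All CAT libraries were close together and above all WT libraries, and Ebp rose by 0.50 ± 0.075 (adjusted p = 0.000538). Sc5d, the desaturase, was at 56.3 to 61.8 CPM in CAT and 58.1 to 64.7 CPM in WT, with overlap. Dhcr7, which completes cholesterol, was at 17.5 to 22.8 CPM in CAT and 14.9 to 17.4 CPM in WT, just apart, and did not pass (log2 change 0.30, adjusted p = 0.078).

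**Figure D3:**
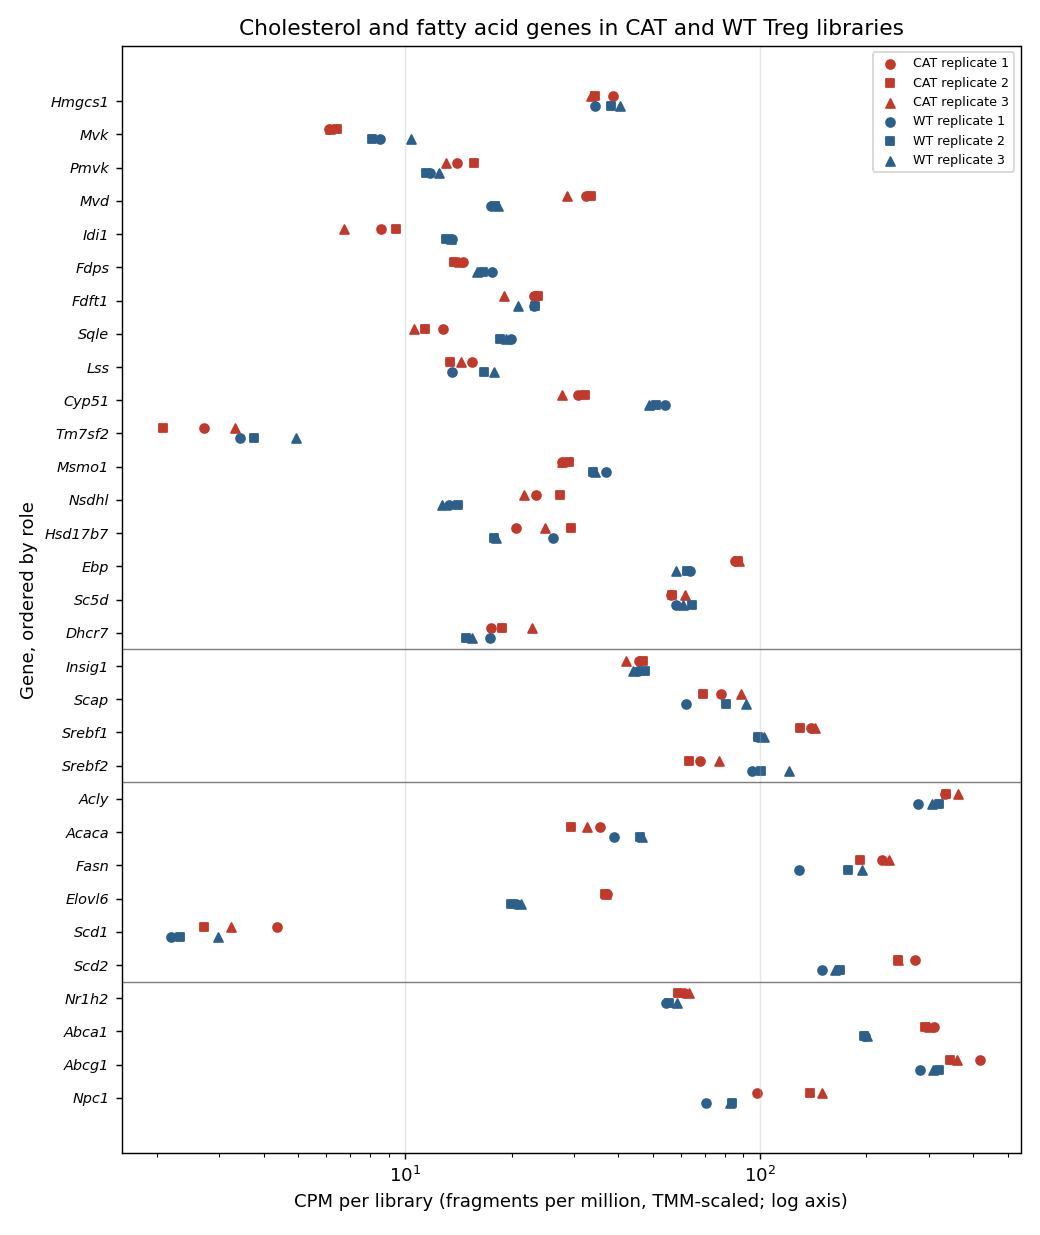
Level of each of the 31 genes in every RNA library in CPM on a log axis (x axis), with genes ordered by role down the page, CAT libraries in red above WT libraries in blue, and a marker shape for each replicate number. Cyp51 and Sqle lie left of their WT libraries and Nsdhl, Elovl6 and Abca1 right of them, while Insig1 and Scap libraries of both genotypes mix.

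In the sensing machinery the SREBP genes moved in opposite directions. Srebf1 stood at 140, 130 and 143 CPM in CAT and at 98.7, 98.7 and 103 CPM in WT. It rose 1.38-fold, by 0.46 ± 0.076 on the log2 scale (adjusted p = 0.000951). Srebf2 stood at 67.9, 63.2 and 77.0 CPM in CAT and at 95.1, 101 and 121 CPM in WT. It fell to 0.66 times the WT level, by 0.61 ± 0.113 (adjusted p = 0.00189), and neither gene's groups overlapped. Insig1, itself a known SREBP target, stood at 45.7, 46.8 and 42.0 CPM in CAT and at 45.4, 47.4 and 44.1 CPM in WT, with overlap (log2 change -0.03 ± 0.083, adjusted p = 0.81). Scap was at 69.2 to 88.8 CPM in CAT and 61.9 to 91.7 CPM in WT, also with overlap. Srebf1 lost its call when FPKM values were tested with limma (adjusted p = 0.0745). Srebf1 overlaps other annotated genes and its estimated counts were not whole numbers, so its level is less certain.

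Of the 6 fatty acid synthesis genes 2 rose, 1 fell and 3 did not pass, with a median log2 change of 0.42. The shares over all tested genes were 25.5% that rose and 23.5% that fell. Both fatty acid synthesis genes that rose act after palmitate is made. Elovl6, which lengthens saturated chains, stood at 37.1, 36.7 and 36.8 CPM in CAT and at 20.6, 19.9 and 21.2 CPM in WT. It rose 1.79-fold, by 0.84 ± 0.086 (adjusted p = 5.56e-05), the smallest adjusted p among the 31 genes. Scd2, a desaturase that makes monounsaturated fatty acids, stood at 274, 245 and 246 CPM in CAT and at 150, 169 and 163 CPM in WT, and rose by 0.67 ± 0.084 (adjusted p = 0.000199).

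Scd1, the related desaturase prominent in liver and fat, is the neighbour of Scd2 on chromosome 19, with 87.6 kb between the gene spans. It stood at 4.36, 2.71 and 3.24 CPM in CAT and at 2.20, 2.32 and 2.98 CPM in WT, with overlap, and did not pass (log2 change 0.46, adjusted p = 0.14). By mean FPKM, which is per length, Scd2 was at 45.8 in CAT and 28.5 in WT, and Scd1 at 0.685 in CAT and 0.495 in WT.

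The enzymes that lead to palmitate were less uniform. Acly, which supplies cytosolic acetyl-CoA, was at 334 to 362 CPM in CAT and 280 to 320 CPM in WT, with no overlap, and did not pass (log2 change 0.19, adjusted p = 0.089). Acaca, the acetyl-CoA carboxylase of the committed step, stood at 35.5, 29.5 and 32.7 CPM in CAT and at 38.9, 46.0 and 46.5 CPM in WT. It fell by 0.43 ± 0.108 (adjusted p = 0.00909). Fasn, the fatty acid synthase, stood at 221, 192 and 232 CPM in CAT and at 129, 178 and 194 CPM in WT. CAT replicate 2 lay below WT replicate 3, and Fasn did not pass (log2 change 0.37 ± 0.144, adjusted p = 0.0595). Its adjusted p was 0.0311 in DESeq2 and 0.0359 without WT replicate 3, and without WT replicate 1 its log2 change was 0.20 (adjusted p = 0.144).

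All 4 efflux and transport genes were above WT in every CAT library, and 3 of them passed. Of all tested genes 30.1% were above WT in every CAT library, and 25.5% rose and passed. Abca1, which loads cholesterol onto apolipoprotein A-I, stood at 310, 293 and 301 CPM in CAT and at 198, 197 and 201 CPM in WT. It rose 1.52-fold, by 0.60 ± 0.072 (adjusted p = 0.000145), with little spread in either genotype. Abcg1, which exports cholesterol to high-density lipoprotein, stood at 417, 344 and 359 CPM in CAT and at 284, 321 and 309 CPM in WT, and rose by 0.29 ± 0.096 (adjusted p = 0.0298). Its call was lost without CAT replicate 1 (log2 change 0.20, adjusted p = 0.133) and without WT replicate 1, WT replicate 2 or WT replicate 3 (adjusted p = 0.0942, 0.052 and 0.0712).

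Npc1, which moves cholesterol out of lysosomes, stood at 98.1, 139 and 150 CPM in CAT and at 70.4, 83.6 and 82.6 CPM in WT. It rose by 0.71 ± 0.149 (adjusted p = 0.00372), with CAT replicate 1 the CAT library nearest to WT. It overlaps another annotated gene, and its estimated counts were not whole numbers, so its level is less certain. Nr1h2 stood at 61.3, 59.0 and 63.2 CPM in CAT and at 54.5, 55.7 and 58.4 CPM in WT, just apart, and did not pass (log2 change 0.12 ± 0.076, adjusted p = 0.209).

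The authors' deposited table of the RNA comparison held all 31 genes and marked 17 as significant. Call and direction matched those given above in 28. In the authors' deposited table Fasn (q = 0.00225) and Hsd17b7 (q = 0.0415) were significant and Msmo1 (q = 0.0628) was not.

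Other genes of the same pathways, from lists of related genes, were also mixed. Of all tested genes 25.5% rose and 23.5% fell, and no count below was tested against these shares. Of 8 other genes of sterol synthesis, handling and SREBP processing, 3 rose and 5 did not pass, with a median log2 change of 0.17. Tmem97, a regulator of NPC1, stood at 8.98, 10.0 and 5.21 CPM in CAT and at 5.09, 4.92 and 4.26 CPM in WT, and rose by 0.76 ± 0.238 (adjusted p = 0.025). The groups were only just apart, with CAT replicate 3 close to the WT libraries. Stard4, a sterol carrier, rose by 0.43 (adjusted p = 0.0108), and Acat2, the cytosolic thiolase that joins acetyl-CoA units, rose by 0.24 (adjusted p = 0.0301). Stard4 passed whichever library was left out, but Acat2 lost its call without any 1 of the 6 libraries (adjusted p = 0.0501 to 0.096) and Tmem97 without any 1 library except CAT replicate 3 (0.0514 to 0.0952).

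Of 11 tested genes that use isoprenoids outside the sterol branch, 1 rose and 2 fell, against 25.5% and 23.5% of all tested genes. Fntb, the beta subunit of protein farnesyltransferase, stood at 32.4, 35.6 and 41.0 CPM in CAT and at 13.2, 14.1 and 14.1 CPM in WT, and rose by 1.40 ± 0.112 (adjusted p = 1.46e-05). Its partner subunit Fnta did not pass (log2 change -0.18, adjusted p = 0.0747). Ggps1, which makes geranylgeranyl diphosphate, fell by 0.44 (adjusted p = 0.00548), and Pdss2, of coenzyme Q synthesis, fell by 0.42 (adjusted p = 0.028). Without CAT replicate 1, CAT replicate 2, WT replicate 2 or WT replicate 3, Pdss2 lost its call (adjusted p = 0.0783 to 0.0939).

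Of 18 tested further genes of fatty acid synthesis and activation, 6 rose and 3 fell, with a median of 0.26. The shares over all tested genes were 25.5% and 23.5%. Acsl3, an acyl-CoA synthetase, fell by 0.91 (adjusted p = 0.000682), and Acss2, which makes acetyl-CoA from acetate, fell by 0.81 (adjusted p = 0.00338). Mid1ip1, an activator of acetyl-CoA carboxylase, rose by 0.59 (adjusted p = 0.0053), and Elovl1, an elongase of very long chains, rose by 0.39 (adjusted p = 0.0038). Of 11 tested fatty acid oxidation genes 4 rose and 1 fell, with Cpt1a, which admits fatty acids to mitochondria, higher by 0.59 (adjusted p = 0.0106). Slc25a20, the carnitine carrier, rose by 0.53 (adjusted p = 0.00198), Acaa2 by 0.40 (adjusted p = 0.0102, and 0.0528 without WT replicate 2), and Acadm fell by 0.36 (adjusted p = 0.00475).

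Of 16 tested other genes of efflux, storage and transport, 5 rose and 4 fell, with a median of -0.04. The shares over all tested genes were 25.5% and 23.5%. Rxra, a partner receptor of the liver X receptors, stood at 82.4, 72.1 and 73.7 CPM in CAT and at 30.6, 34.7 and 37.1 CPM in WT, and rose by 1.16 ± 0.099 (adjusted p = 1.98e-05). Lipa, the lysosomal acid lipase that frees cholesterol from its esters, stood at 325, 325 and 513 CPM in CAT and at 206, 173 and 154 CPM in WT, and rose by 1.13 ± 0.184 (adjusted p = 0.000894). Lpcat3, a phospholipid-remodelling enzyme and known liver X receptor target, rose by 0.71 (adjusted p = 0.000239). Apoe fell by 0.78 at 2.32 to 3.46 CPM in CAT and 3.82 to 6.14 CPM in WT (adjusted p = 0.0221), a call lost without CAT replicate 2, WT replicate 2 or WT replicate 3 (0.0584 to 0.0922). Mylip, another known liver X receptor target, also fell, by 0.66 (adjusted p = 0.000786), and was named after its values were seen.

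Chromatin at most of the start sites was open in both genotypes. Of the 24 genes with a listed start, 22 and 22 had an ATAC peak within 1000 bp in the CAT libraries and 23, 23 and 23 in the WT libraries. The exact permutation test over the 10 splits of 2 against 3 libraries gave p = 0.1, two-sided, the smallest this design allows. Over 9957 tested genes the shares were 81.8% and 81.9% in CAT and 85.2% to 86.5% in WT. The gene behind the difference was Elovl6, which rose in RNA. Its nearest peak lay 1521 and 1500 bp from the start in the CAT libraries and 714, 0 and 29 bp away in the WT libraries. At Acaca, whose nearest peaks lay 15105 and 15311 bp from the listed start in CAT and 14928 to 15013 bp in WT, no library had one within 1000 bp.

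At 20 of the genes every library had a peak over the start site, and all 20 peaks were narrower in CAT. The same held for 99.5% of 7026 genes, and the median ratio of CAT to WT width was 0.60 over the 20 genes and 0.578 over the 7026. Peak names in the CAT and WT lists carry different tags of the peak caller, so a change of chromatin and a change of peak calling cannot be told apart. Abca1 stood lowest within this shift, with widths of 336 and 378 bp in CAT and 1613, 1566 and 1570 bp in WT. Its ratio was 0.226, and 1.59% of the 7026 genes had a ratio as low. Insig1 followed, at 480 and 472 bp in CAT and 1470, 1472 and 1344 bp in WT (ratio 0.333), with 7.22% of genes as low. The RNA of Abca1 rose and that of Insig1 did not pass the test.

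**Figure D4:**
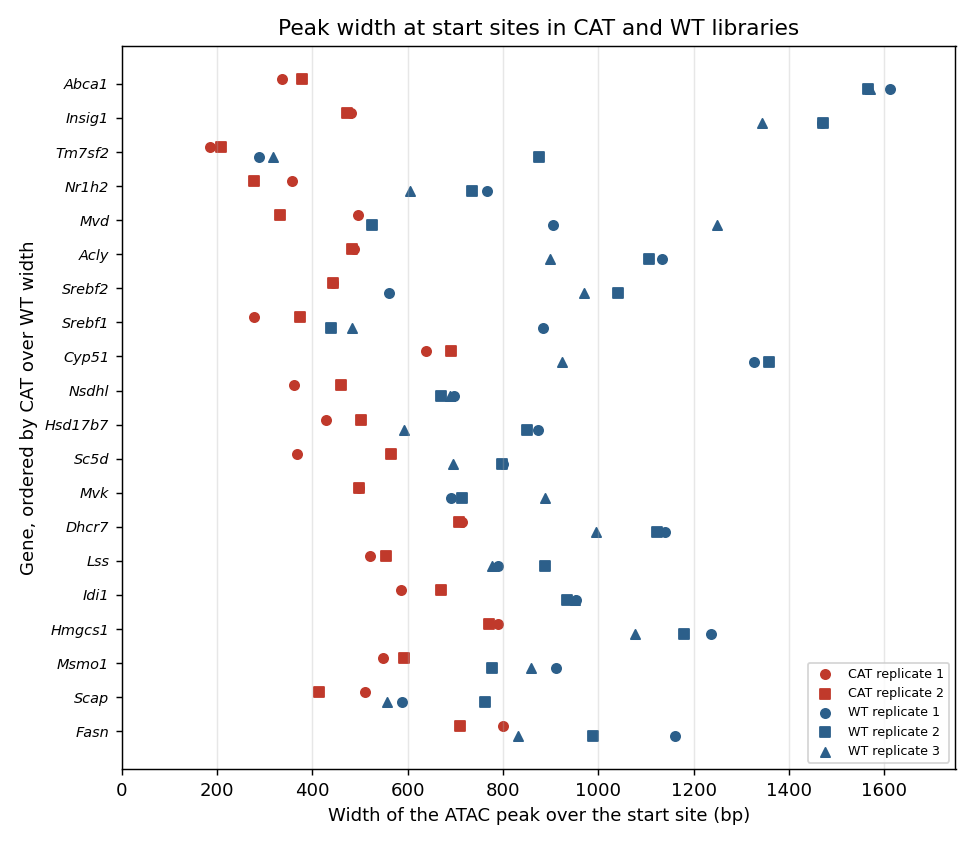
Width in bp of the ATAC peak over the start site (x axis) at the 20 genes with such a peak in all libraries, ordered by the CAT over WT ratio with the lowest at the top, with 2 CAT libraries (red) above 3 WT libraries (blue). CAT peaks are narrower throughout, and the gap is widest at Abca1, at 336 and 378 bp in CAT against 1566 to 1613 bp in WT.

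Regions with a peak in all 5 ATAC libraries lay within 5 kb of 30 of the 31 gene spans, or 96.8%, against 87.0% of tested genes, and Scd1 was the gene without one. Regions with a peak in both CAT libraries and in no WT library are called gained, and those with a peak in all WT libraries and in no CAT library lost. Within 5 kb of the gene span, 2 of the 31 genes had a gained region, or 6.5%, against 6.38% of 12537 tested genes. These were Mvd (chr8:122430153-122430539, 387 bp wide, outside the gene span) and Lss (chr10:76541442-76541649, 208 bp, inside it). Lost regions lay at 4 genes, or 12.9%, against 20.4% of tested genes. They were Scap (chr9:110329599-110330011, outside the span), Srebf1 (chr11:60199753-60200187), Elovl6 (chr3:129621365-129621714) and Npc1 (chr18:12224902-12225301), the last 3 inside the spans. RNA rose at Mvd, Srebf1, Elovl6 and Npc1, so both kinds of region were found beside genes that rose.

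TCF1 peaks of WT cells lay within 5 kb of 15 of the 31 genes, or 48.4%, against 38.6% of tested genes. By role they lay at 4 of 17 sterol synthesis genes, 3 of 4 sensing genes, 4 of 6 fatty acid genes and 4 of 4 efflux and transport genes. Of the 9 genes that rose 5 had a peak, of the 7 that fell 3 had one, and of the 15 that did not pass 7 had one. Of the 24 genes with a listed start, 10 had a peak centre within 1000 bp of it. These were Mvk, Cyp51, Sc5d, Insig1, Scap, Srebf1, Acly, Fasn, Nr1h2 and Abca1. Fdps, Fdft1, Sqle, Scd1, Scd2, Abcg1 and Npc1 had no listed start, so this count could not include them. Among them Scd2, Abcg1 and Npc1 had a TCF1 peak that overlapped the gene span. Whether those peaks lie at a start was not tested. Of the 17 TCF1 peaks within 5 kb of the 31 genes, 15, or 88.2%, overlapped an ATAC peak in all 5 libraries. The share was 79.1% of all 5876 TCF1 peaks. The other 2 of the 17 peaks were both at Abcg1 and overlapped an ATAC peak in 1 CAT library and in 3 WT libraries. TCF1 was not measured in CAT cells.

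The Abca1 promoter is shown because the TCF1 peak of WT cells (chr4:53159944-53160085) and an ATAC peak meet there. That ATAC peak had the lowest ratio of CAT to WT width among the 20 genes, in which peak calling may play a part. The sequence before the gene span is chr4:53159989-53160145 on the minus strand, with the 97 bases inside the TCF1 peak in capitals.
Abca1: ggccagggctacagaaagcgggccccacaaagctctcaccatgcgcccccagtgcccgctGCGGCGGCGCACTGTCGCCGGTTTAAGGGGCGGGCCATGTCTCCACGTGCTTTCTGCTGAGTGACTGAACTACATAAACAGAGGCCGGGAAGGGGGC
Neither CTTTGAT nor TCACNCCAC was found in the 300-base window of this gene.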

How the data were processed

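The authors deposited Cuffdiff output for RNA-seq, per the file headers, with estimated counts of fragments per gene and library, of which 92.5% were whole numbers, and FPKM values. A further deposited table gives the authors' p-values and q-values per locus, joined to genes through group FPKM (relative tolerance 0.0001). Deposited ATAC peak lists give a -log10 q per peak, and the TCF1 list gives positions alone. Bowtie, HOMER and MACS2, with the mm10 build, are listed in the submitters' processing notes. The RNA aligner is not given in the sources used here.

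Rounded counts went into the quasi-likelihood test of edgeR 4.0.16 (R 4.3.3, TMM scaling, genes filtered by expression), with Benjamini-Hochberg adjustment over 13193 genes. Per-library CPM are scaled by TMM factors. Standard errors are the log2 change over the root of the F statistic. DESeq2 1.42.0 and limma 3.58.1 on log2(FPKM + 1) were alternatives, the log scale with a pseudocount shrinking the changes of weakly expressed genes. Deposited FPKM per fragment varied by gene in both libraries numbered 1 (SD 17.6% in CAT and 21.6% in WT, against 1.02% to 1.42% in the others). CPM are therefore printed per library in place of the planned FPKM. FPKM served to compare levels between genes, to choose the genes named in full, to join the authors' values and in limma. The limma alternatives therefore carry this variation. Left out were 25 identifiers turned into dates (0.265% to 0.281% of fragments) and 13 genes with a failed estimate. Counting is not stated to use strand, and 13 of the 31 genes overlap another annotated gene. Scripts were tested on simulated data.

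The -log10 q column seems not to belong to the coordinates beside it (rank correlation of overlapping peaks 0.031 to 0.132 by q, 0.632 to 0.836 by width), so it was used in 1 alternative only. How deeply the ATAC and ChIP libraries were sequenced is unknown. RefSeq (GRCm38.p6) gave gene spans and promoters, and an overlap of 1 bp counted. Same-numbered CAT and WT libraries deviated with correlations of 0.053, -0.129 and 0.239, so the numbers were not taken as pairs.

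Members and lists were chosen with earlier results of these data known. Named in full were genes past the threshold with a mean FPKM of at least 1 in either genotype, plus Srebf1, Srebf2, Insig1, Fasn and Abca1, and from each related list up to 4 of the most changed genes that met the same conditions. Some genes of the related lists are not reported here.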

Additional observations from a re-analysis of the deposited data

How the results depend on the processing

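Of the 16 genes that passed, 8 passed in each of the 16 alternatives run for them, namely Mvd, Sqle, Cyp51, Nsdhl, Ebp, Elovl6, Scd2 and Abca1. Of the 15 that did not, 8 kept their direction and stayed outside the threshold in each alternative run for them, which were 16 for each gene but Scd1, with 13. Over all 31 genes the alternatives left direction and call the same in 446 cases, lost the call in 30, gained it in 9 and turned the direction in 8.

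The direction turned only in genes that did not pass. It did so for Scap with upper-quartile factors (-0.03), quantile-normalized FPKM in limma (-0.02), with WT represented by replicate 2 alone (-0.04) and without both libraries numbered 1 (-0.13), a setting chosen after seeing the data. With 1 library left out at a time, Scap ranged over -0.14 to 0.13, Fdft1 over -0.10 to 0.06 and Insig1 over -0.06 to 0.02, turning without WT replicate 1 (Scap) or CAT replicate 3 (all 3 genes).

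Over all genes limma called 3933 at log2(FPKM + 1), 3908 at log2(FPKM + 0.1), 4042 after quantile normalization and 3882 with no filter on level, and 3585 were called by edgeR with replicate 2 standing alone for WT, where the CAT libraries alone give the spread and a single WT sample is taken to have the same variation. With no filter limma called 9 of the 31 genes, 2 of them lower. With WT replicate 2 alone 4 of the 31 were called lower. The cause was not tested.

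The mean number of genes with a promoter peak, CAT minus WT, was 0.0 with a window of 2500 bp and turned to 2.83 at a -log10 q of at least 10, a column that seems not to belong to its coordinates. With a window of 500 bp the exact permutation test gave p = 0.4, so the p = 0.1 above depends on the window. Gained regions lay at 1 gene with no extension of the span, or 3.2%, against 5.28% of tested genes. Lost regions lay at 7 with 20 kb, or 22.6%, against 30.9% of tested genes.

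With the replicate number as a block, edgeR called 6384 genes and 17 of the 31, Fasn being added (adjusted p = 0.0305). Whether the numbers mark pairs or batches is not stated, and the correlations given above do not settle it. Both libraries numbered 1 differ from the others in FPKM per fragment.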
